A study of Mus musculus with 6 samples.

Results

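Apical progenitors line the ventricle of the embryonic cortex, and 6 genes that mark them were followed here across 3 mutant and 3 control mouse embryos at E11.5: Pax6, Nes, Vim, Prom1, Tead2 and Glis3. The members were the probes that the authors' table of the series names with 1 of these symbols, which gave 8 of the 39429 probes on the array, for 5 of the 6 genes. All 5 passed the filter on dim probes, among 16947 named genes that did. Glis3 has no row in that table, and its 2 probes were found by their transcript accession in the scanner files. The levels of all 10 probes were taken from the arrays of the single embryos.

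The labels call the groups mutant and control. They do not name the mutated gene, the allele or any driver of recombination, though the title of the series speaks of Wnt/beta-catenin signalling in precursors of the cortex. Dorsal forebrain was dissected from single embryos, and each of 3 litters gave 1 mutant and 1 control. Embryo 1 of each group is of litter 1, embryo 2 of litter 2 and embryo 3 of litter 3. The embryos of litter 1 were hybridised on slide 1 and the other 4 on slide 2.

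Apical progenitors, the neuroepithelial and radial glial cells of the ventricular zone, keep an apical end at the ventricle and a long process to the pia, and divide at the ventricular surface to give further progenitors, basal progenitors or neurons. Pax6 encodes a paired-box and homeobox transcription factor of dorsal forebrain progenitors. Nes and Vim encode the intermediate filament proteins nestin and vimentin, Prom1 encodes a glycoprotein of apical membrane protrusions (CD133), Tead2 encodes a DNA-binding partner of the Hippo pathway coactivators Yap1 and Wwtr1, and Glis3 encodes a zinc-finger transcription factor of the Gli-similar family. Vim is not exclusive to the progenitors, since vessel and mesenchymal cells also make vimentin.

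None of the 5 measurable markers changed between mutants and controls at the threshold used. A marker counts as changed where its adjusted p in limma over all 21224 genes and unnamed probes is under 0.05, and 0.033% of those rows passed (0.00942% higher and 0.0236% lower in mutants). Of the 5 markers 0 passed, while 2 (Pax6 and Vim, both higher) had an unadjusted p under 0.05, as did 16.9% of all rows (9.47% higher and 7.42% lower). With litter as a block 0 of 5 passed, against 0.0% of all rows, and the same 2 had an unadjusted p under 0.05, against 19.8%. The differences of 4 markers were above 0, against 55.0% of all rows, and that of Tead2 was below 0. The largest of the 5 differences, that of Pax6, was 1.26-fold. In whole tissue, fewer cells of a type and less RNA per cell cannot be told apart.

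A level is the log2 of a probe's signal over the 75th percentile of its array. A difference is the mean level of the mutants minus that of the controls, and its 95% interval comes from limma. Precision is limited by having 3 arrays a group. All 8 probes of Pax6, Nes, Vim, Prom1 and Tead2 were well above background on all 6 arrays, and none was saturated. The 75th percentile of the processed signal, by which each array is scaled, was 1207 to 1380 in mutants, below the 1446 to 1833 of the controls. Levels of different probes are not compared with each other.

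**Figure D1:**
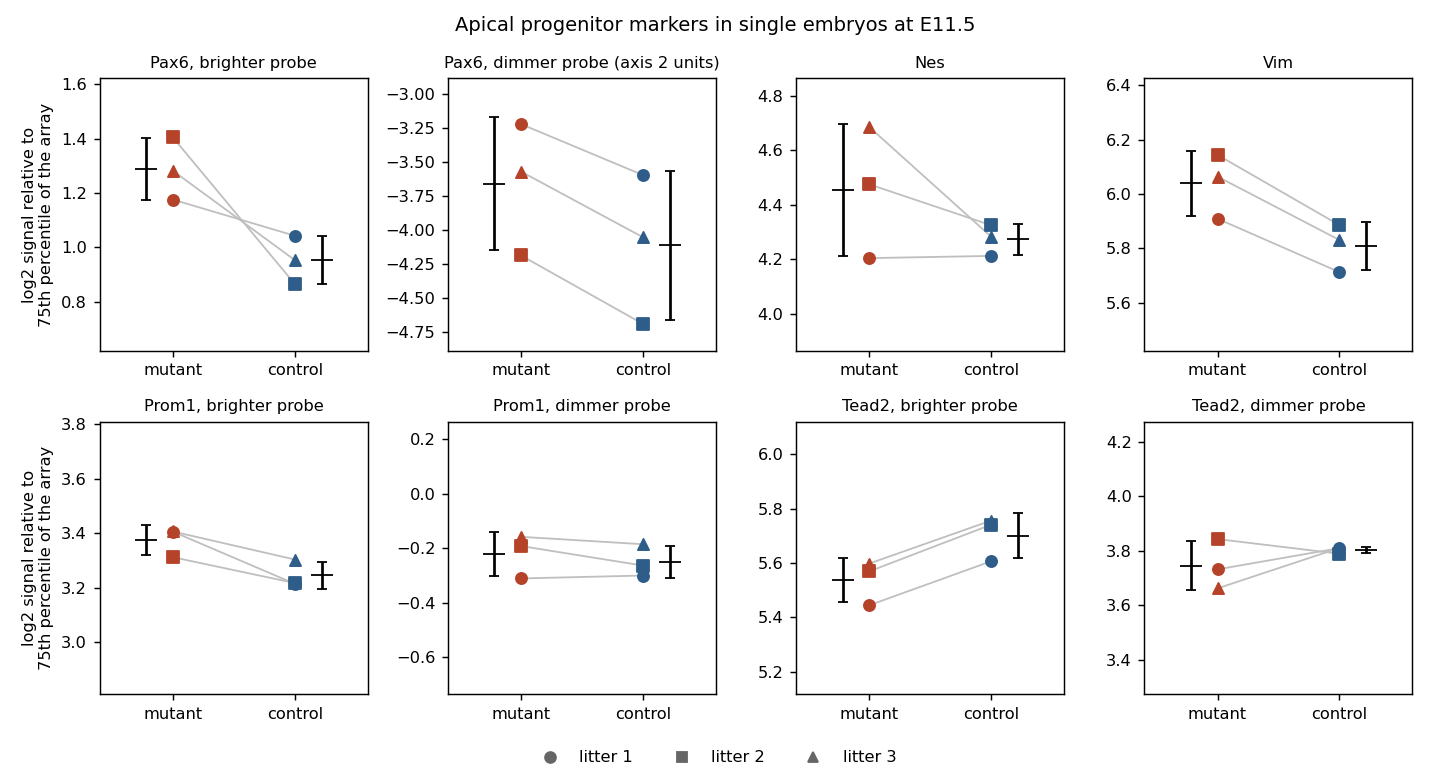
Level of each probe (vertical axis, log2 signal relative to the 75th percentile of the array) in the 3 mutant and 3 control embryos, with grey lines joining embryos of a litter and black bars giving mean ± SD (n = 3 each). Every panel spans 1 log2 unit except that of the dimmer Pax6 probe, which spans 2. The mutants lie above the controls for the brighter Pax6 probe, Vim and the brighter Prom1 probe, below them for the brighter Tead2 probe, and overlap them in the other 4 panels.

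Pax6 is needed in these cells for dorsal identity and for neurogenesis, and has 2 probes. The brighter one was at 1.18, 1.40 and 1.28 in mutants 1, 2 and 3, while controls 1, 2 and 3 were at 1.04, 0.87 and 0.95. All 3 mutants thus lay above all 3 controls, and the gap was narrowest in litter 1. The means were 1.29 ± 0.11 in mutants and 0.95 ± 0.09 in controls (SD, n = 3 each), and the difference of 0.33 (SE 0.09, interval 0.11 to 0.56) missed the threshold (limma, adjusted p = 0.198). Within the litters the difference was 0.13, 0.54 and 0.33 in litters 1, 2 and 3.

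The other Pax6 probe had processed signals of 141, 75.7 and 101 in mutants 1, 2 and 3 and of 151, 57.3 and 87.0 in controls 1, 2 and 3. Its levels were -3.22, -4.19 and -3.57 in the mutants, against -3.60, -4.69 and -4.05 in the controls. The groups overlapped, because litter 1 was highest and litter 2 lowest in both, yet each mutant lay above the control of its own litter, by 0.37, 0.50 and 0.48. Fitted with every probe as its own row, the difference was 0.45 (SE 0.36, limma, adjusted p = 0.56), and with litter as a block its SE was 0.07 (adjusted p = 0.163, unadjusted p = 0.00324), an analysis added after the values were seen. For both Pax6 probes the mutant was therefore the higher embryo in 3 of 3 litters. For comparison, 26.1% of all rows had the mutant above its litter's control in all 3 litters. The brighter probe lies on chromosome 2 from 105536454 to 105536513 and the dimmer on chromosome 2 from 105524098 to 105524949 (mm9). The stretch given for the dimmer one is 852 bases long, against 60 bases for each other marker probe that the table lists.

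Vim encodes vimentin, a filament protein of radial processes. Its single probe was at 5.91, 6.14 and 6.06 in mutants 1, 2 and 3, while controls 1, 2 and 3 were at 5.71, 5.89 and 5.83. The groups did not overlap, with a gap of 0.20, 0.26 and 0.23 within litters 1, 2 and 3, the narrowest span between litters among the markers that were higher. The means were 6.04 ± 0.12 in mutants and 5.81 ± 0.09 in controls (SD, n = 3 each), and the difference of 0.23 (SE 0.09, interval 0.0002 to 0.46) did not pass (limma, adjusted p = 0.296, and 0.198 with litter as a block). The probe lies on chromosome 2 from 13504232 to 13504291 (mm9).

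The bases before the starts of Pax6 and Vim are shown because these were the markers with the smallest unadjusted p, with letters searched on both strands. The searched letters were CTTTGA, which is the core that Tcf and Lef proteins bind. The core that Tead proteins bind was searched as CATTCC. General promoter elements were searched as CCAAT and, for the element that binds the TATA-binding protein, as TATAAA. The GC box was searched as GGGCGG. Each is 250 bases upstream of an annotated start in RefSeq (GRCm38.p6, plus strand), that of Pax6 from the first of its 2 annotated windows, at chr2:105668646-105668895, and that of Vim at chr2:13574061-13574310. Capitals mark CCAAT on either strand (ATTGG on the other) and TATAAA.
Pax6: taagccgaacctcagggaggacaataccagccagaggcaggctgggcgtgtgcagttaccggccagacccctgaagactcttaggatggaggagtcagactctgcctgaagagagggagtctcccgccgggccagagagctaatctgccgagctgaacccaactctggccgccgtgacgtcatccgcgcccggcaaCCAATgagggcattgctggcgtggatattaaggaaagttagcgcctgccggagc
Vim: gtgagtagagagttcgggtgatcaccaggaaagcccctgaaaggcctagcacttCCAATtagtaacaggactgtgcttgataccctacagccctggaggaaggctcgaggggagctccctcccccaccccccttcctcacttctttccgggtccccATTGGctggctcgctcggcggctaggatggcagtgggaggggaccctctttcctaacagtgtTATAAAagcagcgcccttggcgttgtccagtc
Pax6 holds CCAAT at position -54, and Vim holds CCAAT on both strands (positions -196 and -94) and TATAAA at -32, counted from the start. Over the 8 windows of the 6 markers (250 bases before and 50 after a start), CCAAT was found in 3, against 37.4% of all 32851 windows of that length, and TATAAA in 1, against 13.6%. The GC box was found in 4 of 8, against 35.7%. CTTTGA was found in 1 of 8, the second window of Prom1, against 16.0%, and CATTCC in 0 of 8, against 14.7%. A match is a description of letters, and its absence says only that these letters are not in this window.

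Nes encodes nestin, which assembles with vimentin. Its probe was at 4.20, 4.48 and 4.69 in mutants 1, 2 and 3, while controls 1, 2 and 3 were at 4.21, 4.33 and 4.28. Mutant 1 was just below the lowest control and mutants 2 and 3 above all controls, so that the groups overlapped and the mutants were spread more widely (SD 0.24 in mutants and 0.06 in controls, n = 3 each). The difference of 0.18 (SE 0.13, interval -0.15 to 0.51) did not pass (limma, adjusted p = 0.526). It was -0.01, 0.15 and 0.40 within litters 1, 2 and 3, and rested on mutants 2 and 3: it was 0.31 without mutant 1 and 0.07 without mutant 3. The probe lies on chromosome 3 from 87784303 to 87784362 (mm9).

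Prom1, the gene of prominin-1, has 2 probes, annotated with different RefSeq transcripts. The brighter one was at 3.41, 3.31 and 3.41 in mutants 1, 2 and 3, while controls 1, 2 and 3 were at 3.21, 3.22 and 3.30. The mutants lay above the controls, though mutant 2 exceeded the highest control by less than the SD of either group. The difference was 0.13 (SE 0.07, interval -0.04 to 0.30, limma, adjusted p = 0.401). The dimmer probe was at -0.31, -0.19 and -0.16 in the mutants, against -0.30, -0.26 and -0.19 in the controls. There the groups overlapped, and the difference of 0.03 (SE 0.08, interval -0.16 to 0.22) has an interval of -10.5% to 16.3%. The brighter probe lies on chromosome 5 from 44384861 to 44384920 and the dimmer from 44397410 to 44397469 (mm9). The difference between the probes was not tested.

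Tead2 was the marker with a negative difference. Its brighter probe was at 5.44, 5.57 and 5.60 in mutants 1, 2 and 3, while controls 1, 2 and 3 were at 5.61, 5.74 and 5.76. All 3 mutants lay below all 3 controls, mutant 3 only just, and the difference within litters 1, 2 and 3 was -0.16, -0.17 and -0.16. The difference of -0.16 (SE 0.08, interval -0.36 to 0.04) did not pass (limma, adjusted p = 0.375, and 0.267 with litter as a block). The dimmer Tead2 probe was at 3.73, 3.84 and 3.66 in mutants 1, 2 and 3, while controls 1, 2 and 3 were at 3.81, 3.79 and 3.81. The groups overlapped there (-0.06, SE 0.07, adjusted p = 0.735). Both probes lie on chromosome 7, from 52488930 to 52488989 and from 52488742 to 52488801 (mm9).

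Glis3 was not measurable in this tissue with these arrays. Both of its probes were not well above background on any of the 6 arrays. The brighter had processed signals of 4.15, 3.45 and 2.57 in mutants 1, 2 and 3 and of 3.22, 2.46 and 2.51 in controls 1, 2 and 3, where the lowest signal called well above background on an array was 8.83 to 14.1 in mutants and 8.66 to 11.4 in controls. No fold is given. After scaling, the mutants lay higher than the controls for this probe (-8.31, -8.65 and -8.88 against -9.15, -9.23 and -9.17), while the unscaled signal of mutant 3 lay below that of control 1.

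**Figure D2:**
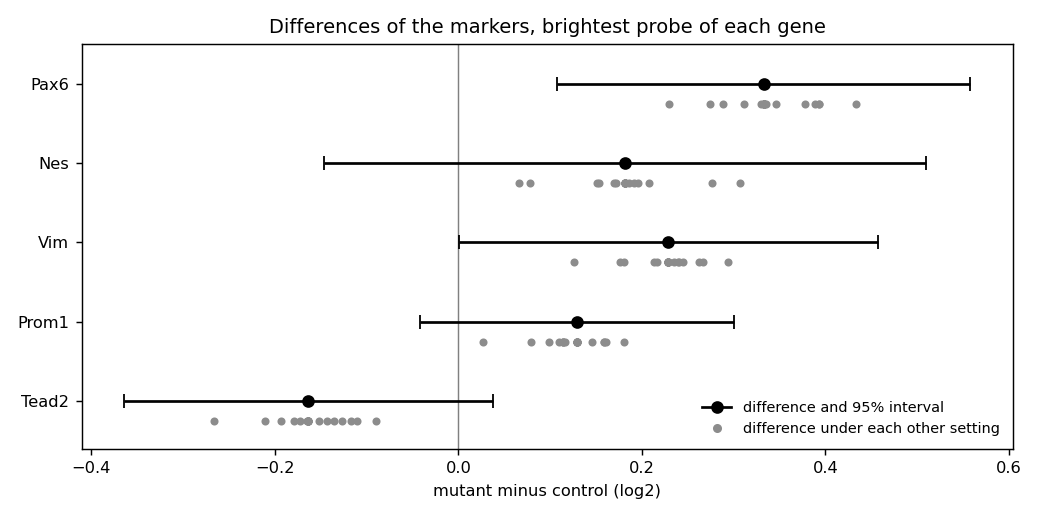
Mutant minus control (horizontal axis, log2) for the brightest probe of each marker, with the 95% interval from limma (black) and the differences under each of 20 other settings (grey points). The point of Pax6 lies farthest to the right at 0.33, and that of Tead2 is the one below 0, at -0.16, under every setting shown. Grey points of the filters, the blocks and the variance model fall on the black point's value, because these settings leave the difference unchanged.

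The 3 markers whose mutants all lay above the controls (Pax6, Vim and Prom1) and the one whose mutants all lay below (Tead2) make 4 of 5 whose groups did not overlap. By their brightest probes the same 4 had the same direction in all 3 litters, as did 47.3% of all rows. The groups overlapped for the dimmer probes of Pax6, Prom1 and Tead2. The dimmer Pax6 probe was higher in the mutant of all 3 litters. The dimmer Prom1 probe was at -0.01 in litter 1 and the dimmer Tead2 probe at 0.05 in litter 2 (mutant minus control), each against its other litters. Groups did not overlap for 24.8% of all rows, 12.9% with the mutants higher and 11.9% with the mutants lower. All 5 markers passed the filter on low signals in both groups. The overlap depends on the scaling: with median centring the mutants lay above the controls for Pax6 only, with a gene's probes averaged for Vim only, and with the authors' log2 values Tead2 overlapped. Median centring moves the median difference of all rows to -0.08, against 0.02 with the 75th percentile, and gave differences of 0.23 for Pax6, 0.08 for Nes, 0.13 for Vim, 0.03 for Prom1 and -0.27 for Tead2.

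The intervals bound what these embryos allow. For Pax6 they reach from 7.76% to 47.2% higher, for Vim from 0.0142% to 37.3% higher, for Prom1 from -2.83% to 23.2%, for Nes from -9.62% to 42.3% and for Tead2 from -22.3% to 2.61%. These intervals are not adjusted for the number of genes tested, so one that leaves out 0 is not a call. They also depend on the probe and the scaling. That of the dimmer Pax6 probe was -25.4% to 151%. With median centring the unadjusted p in limma was 0.0705 for Pax6 and 0.34 for Vim, against 0.0114 and 0.0499 here. By the brightest probe, the spread between embryos of a group was small for most of the markers. Of all rows, 93.2% had a larger within-group SD than Prom1, 78.6% than Tead2, 68.0% than Pax6, 66.6% than Vim and 42.4% than Nes. These rows were not matched to the markers by level. The dimmer Pax6 probe varied more (SD 0.49 in mutants and 0.55 in controls, n = 3 each).

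In the authors' deposited table the log2 ratios of mutant over control were 0.327 and 0.305 for the brighter and dimmer Pax6 probes, 0.241 for Vim, 0.171 for Nes, 0.183 and 0.0289 for the Prom1 probes, and -0.0916 and -0.0187 for the Tead2 probes. The fdr of that authors' deposited table was 0.0839 for the brighter Pax6 probe, 0.493 for the dimmer and 0.424 for Nes, and it is empty for the probes of Vim, Prom1 and Tead2. The table was made from the same 6 arrays and adds no independent values.

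Over the 6 arrays the levels of Pax6 and Vim correlated at 0.79, those of Nes and Vim at 0.78 and those of Pax6 and Tead2 at -0.68 (Pearson's r, n = 6 arrays that share groups and litters, given as a description). Among 16946 other named genes, the most alike over the same 6 arrays were Tdrd7 and Adam21 for Pax6 (r = 0.996 and 0.992), Arhgef18 and C2cd2l for Nes (0.998 and 0.995), Fcor and Tbc1d22b for Vim (0.998 and 0.996), Casp14 and Cipc for Prom1 (0.98 and 0.98), and Ruvbl2 and E130309D02Rik for Tead2 (0.998 and 0.998). With 6 arrays such values are common: 117 to 555 genes had r above 0.9 with a given marker.

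Other genes of apical progenitors and radial glia spread to both sides. The markers, this list and those below were chosen with earlier results of these data known. Shares of all rows set beside their counts are therefore a description only. Of 29 listed genes 28 were tested and 0 passed over all rows in limma, with 7 higher and 4 lower at an unadjusted p under 0.05 (9.47% and 7.42% of all rows), and a median difference of 0.02, the same as that of all rows. Those with the smallest p were Fabp7, which encodes brain lipid-binding protein (difference 1.39, SE 0.13, adjusted p = 0.0551), the homeobox genes Emx2 (-0.92, SE 0.10, 0.0676) and Lhx2 (-0.58, SE 0.09, 0.103), and the receptor phosphatase gene Ptprz1 (0.69, SE 0.11, 0.105). All 3 mutants lay above all 3 controls for 7 of the 28 genes, and below them for 6 (12.9% and 11.9% of all rows). All 4 passed with normexp background correction or with trend and robust variance. Sox2, the general neural progenitor factor, named outside the rule, had a difference of 0.05 (SE 0.07). The differences of Fabp7, Emx2, Lhx2 and Ptprz1 were each larger in size than that of any of the 5 markers. These 4 were picked by smallest p among the 28 tested genes, so this comparison says nothing about the markers.

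Genes of the apical junction and of cell polarity, which hold the apical end in place, had a median difference of 0.07. Of 24 listed genes 23 were tested, 0 passed, and 3 were higher and 2 lower at an unadjusted p under 0.05 in limma. Over all rows the median was 0.02, and 9.47% were higher and 7.42% lower at that p. The smallest p were those of the scaffold gene Dlg1 (-0.44, SE 0.10), the Crumbs gene Crb2 (-0.28, SE 0.06), the atypical cadherin gene Fat4 (0.52, SE 0.16) and the Numb-like gene Numbl (0.30, SE 0.10), with adjusted p of 0.163 to 0.228.

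Genes of other intermediate filaments and the nuclear lamina had a median difference of -0.08. Of 13 listed genes 11 were tested and 0 passed, with 0 higher and 2 lower (Des and Lmnb1) at an unadjusted p under 0.05 in limma. The shares over all rows were 9.47% higher and 7.42% lower, with a median difference of 0.02. Des, the gene of the muscle filament desmin, was not well above background on any mutant array and gave no usable fold. Lmnb1, the gene of lamin B1, had a difference of -0.55 (SE 0.22), the neuronal filament gene Ina one of 0.42 (SE 0.18) and Synm, the gene of synemin, one of -0.31 (SE 0.16). Without mutant 3 these were 0.26 for Ina and -0.15 for Synm.

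Tead2 acts in the Hippo pathway, of which 19 of 21 other listed genes were tested and 0 passed. Their median difference was 0.06, against 0.02 over all rows. At an unadjusted p under 0.05 in limma 3 were higher and 0 lower (9.47% and 7.42% of all rows). The 3 were Ccn1 (0.82, SE 0.16, adjusted p = 0.147) and Ccn2 (0.90, SE 0.35, adjusted p = 0.282), both secreted matricellular proteins and known targets of Yap and Tead proteins, and Amot (0.37, SE 0.08, adjusted p = 0.152), the gene of a Yap-binding protein. The kinase gene Lats1 had a difference of 0.14 (SE 0.07), or 0.02 with the authors' log2 values.

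Of the relatives of Glis3, 5 of 5 Glis and Gli genes were tested, and 0 passed or reached an unadjusted p under 0.05. Glis2 (-0.15, SE 0.07) and Gli3 (-0.18, SE 0.08) had negative differences, and Glis1 (0.25, SE 0.14) and Gli1 (0.61, SE 0.35) positive ones. Without mutant 1 that of Gli1 was 0.29, and without control 1 that of Glis1 was 0.14. Of 5 other Pax genes, 3 passed the filter on dim probes and 0 passed the test, with Pax7 the one at an unadjusted p under 0.05 in limma. Of all rows 0.033% passed, and 9.47% were higher and 7.42% lower at that unadjusted p. Pax7 was not well above background on any mutant array, so no fold is given, and Pax3 had a difference of 0.45 (SE 0.24) and Pax2 one of 0.10 (SE 0.17). Pax2 was at -0.12 with the authors' log2 values, at -0.06 without mutant 2 and at -0.01 without control 3. Pax3 was at 0.10 with the authors' log2 values and at 0.26 without control 3.

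Genes described as targets of Pax6 in rodent cortical progenitors had differences of both signs, with 4 of 6 above 0 (55.0% of all rows). Their median difference was 0.26, or 0.14 without mutant 2, against 0.02 over all rows. All 6 were tested and 0 passed in limma. At an unadjusted p under 0.05 Fabp7 (1.39) and Eomes (0.38, SE 0.15, or 0.23 without control 2) were higher. Fut9 (-0.77, SE 0.15) and Hmga2 (-0.36, SE 0.08) were lower at that p. Of all rows 9.47% were higher and 7.42% lower. Eomes marks basal progenitors, Fut9 makes a carbohydrate epitope of stem cells and Hmga2 encodes a chromatin protein of young progenitors.

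**Figure D3:**
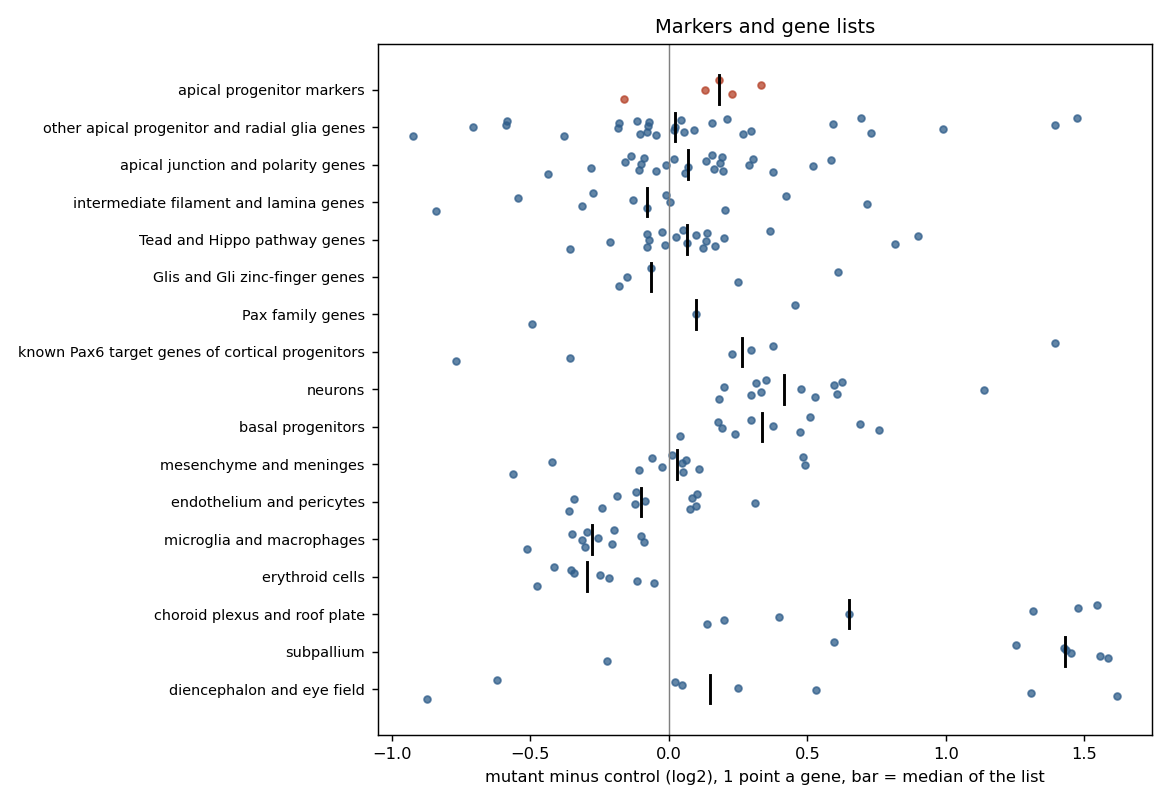
Mutant minus control (horizontal axis, log2) of the 5 measured apical progenitor markers (red) and of the tested genes of 16 lists (blue), with a black bar at each list's median. The markers lie between -0.16 and 0.33, and the list of other apical progenitor and radial glia genes spreads to both sides around a median of 0.02.

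Markers of the other cells in the dissected tissue were set beside these values (over all rows, 55.0% had a difference above 0 and 9.47% were higher at an unadjusted p under 0.05), since vimentin and nestin are also made outside the progenitors. Their part in the differences of the markers was not tested. All 12 listed neuronal genes had positive differences (median 0.41), and their summed level, in multiples of the 75th percentile of the array, was 85.7 to 128 in mutants and 76.6 to 82.8 in controls. All 10 genes of basal progenitors likewise had positive differences (median 0.34, summed level 71.4 to 90.9 in mutants and 58.3 to 61.9 in controls). Each summed level, here and below, is added on the linear scale and rests most on the brightest genes of its list. In both lists 0 genes passed in limma, with 5 of 12 and 6 of 10 higher at an unadjusted p under 0.05. The smallest p were those of Gap43 (0.61, SE 0.17) and Insm1 (0.69, SE 0.14). The median deviation of the neuronal genes from the control mean was 0.06 in mutant 1 and 0.09 in control 1, of the same litter. In mutants 2 and 3 it was 0.49 and 0.68. Without mutant 3 the median difference of the neuronal genes was 0.27, with 12 of 12 above 0. For basal progenitor genes the deviation was 0.19 in mutant 1 and 0.02 in control 1. The summed level of both lists was lowest of the mutants in mutant 1. Mutant 1 was the lowest mutant for Nes, Vim, the brighter probes of Pax6 and Tead2 and the dimmer Prom1 probe. It was not the lowest for the brighter Prom1 or dimmer Tead2 probe, and was the highest for the dimmer Pax6 probe. Control 1, of the same litter and slide, was the lowest control for Nes, Vim and the brighter Tead2 and Prom1 probes, but the highest for both Pax6 probes. The part of litter or slide in this order was not tested.

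Mesenchymal and meningeal genes, whose cells also make vimentin, were highest in mutant 1. Their summed level was 52.2, 25.7 and 18.6 in mutants 1, 2 and 3, while controls 1, 2 and 3 were at 36.1, 28.6 and 25.0, with 7 of 12 differences above 0 and a median of 0.03. Without mutant 1, 0 of 12 were above 0 (median -0.43), and without mutant 3, 10 of 12 were (median 0.34). Endothelial and pericyte genes had summed levels of 13.9 to 20.8 in mutants and 16.1 to 18.9 in controls (median -0.10, 5 of 12 above 0, and 9 of 12 without mutant 3). Each of these 24 genes was well above background on all 6 arrays.

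The summed levels of microglial genes were 2.19 to 3.67 in mutants and 2.87 to 3.38 in controls (10 of 10 differences below 0). With normexp background correction Ptprc, C1qb and Lyz2 turned positive (0.10, 0.02 and 0.30), and Ptprc and Lyz2 were not above background on every array. Erythroid genes summed to 742, 705 and 459 in mutants 1, 2 and 3, and to 659, 675 and 754 in controls 1, 2 and 3. Their differences were below 0 for 8 of 8 genes (median -0.30), but for 4 of 8 without mutant 3 (median 0.03). Choroid plexus and roof plate genes summed to 2.71 to 7.14 in mutants and 1.81 to 3.75 in controls (7 of 7 tested above 0, 4 of 7 without mutant 1, with Ttr and Kcne2 below the filter). Subpallial genes summed to 6.35 to 12.6 in mutants and 1.22 to 7.80 in controls (7 of 8 above 0, with Nkx2-1 below the filter). Control 3 had the lowest sum, and the median difference was 1.43, or 0.27 without it. Genes of the diencephalon and eye field, where Pax6 is also made, summed to 2.23 to 3.18 in mutants and 2.46 to 3.37 in controls. Differences were above 0 for 6 of 8 (55.0% of all rows), and for 4 of 8 without mutant 1 or without control 3. Six6 and Barhl2 were below the filter. At an unadjusted p under 0.05 in limma 0 were higher and 2 lower (9.47% and 7.42% of all rows). The 2 were Vax2 (-0.87, SE 0.29) and Gbx2, which was well above background on only 1 mutant array, so no fold is given. In each of these 5 lists 0 genes passed in limma.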

How the data were processed

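Dorsal forebrain RNA of 6 embryos (E11.5, 3 mutant and 3 control) was measured on 1-colour arrays. The deposited scanner files hold spot intensity on a linear scale, with background subtracted inside each array but no scaling between them, from Agilent Feature Extraction 10.7.3.1 (design 026655, mm9 in the name of the grid), as per the file headers, and flags of spots above background, saturated or outlying. A table deposited by the authors gives log2 values, a log2 ratio, a p-value and an fdr. The submitters' processing notes name limma without version or role. How the authors normalized the log2 values is not stated there. The numbered columns of that table were used by group only, because they may not follow the sample titles.

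Outlier spots were left out, spots of a probe averaged, and log2 signals scaled by each array's own 75th percentile. A probe had to be well above background on 3 or more arrays (26849 were), and the brightest of a gene was used (21224 rows, 16947 of them named, mostly by accession through a RefSeq table of GRCm38.p6). The 2 groups were fitted in limma (3.58.1, lmFit and eBayes, R 4.3.3), two-sided, at a Benjamini-Hochberg adjusted p under 0.05. The fit was tested on simulated data with independent noise. Those data held no litter, slide or scaling effects, so the test does not cover these. Python 3.11.15, pandas 2.3.3 and matplotlib 3.10.9 did the rest.

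Litters named in the titles pair the embryos. The deviations of a litter's embryos from their groups' means correlated at r = 0.31, 0.36 and 0.11 in litters 1, 2 and 3. Between litters r was -0.41 to 0.11, so that litter 3 did not stand out. Litter 1 was alone on slide 1, where litter and slide cannot be told apart. Alternatives were background correction, scaling, filter, probe choice, litter or slide as a block, slide 2 alone, variance model, array weights, the authors' log2 values, an adjusted p under 0.1 and omission of each embryo. The fit of every probe with litter as a block was added after seeing the data. The markers and the gene lists were chosen with earlier results of these data known. The named genes are the 6 markers, up to 4 genes of smallest unadjusted p in each list and the 2 most alike genes of each marker, with the first gene of the neuronal and basal progenitor lists. Sox2, Gas1, Ptprc, C1qb and Lyz2 were named after their values were seen.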

Additional observations from a re-analysis of the deposited data

How the results depend on the processing

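The differences of the 5 markers kept their direction and stayed short of the threshold under all 20 other settings. Several of these settings could not move a difference and changed only its SE and adjusted p. They were the filters, every probe as its own row, litter or slide as a block, and the variance model. They ranged from 0.23 to 0.43 for Pax6, 0.07 to 0.31 for Nes, 0.13 to 0.29 for Vim, 0.03 to 0.18 for Prom1 and -0.27 to -0.09 for Tead2, and the smallest adjusted p was 0.0972 (Pax6, normexp background correction). Litter as a replicate block changed no call of a marker (adjusted p of 0.227 for Pax6, 0.409 for Nes, 0.198 for Vim, 0.357 for Prom1 and 0.267 for Tead2). Within slide 1 and slide 2 the difference was 0.13 and 0.43 for Pax6, -0.01 and 0.28 for Nes, 0.20 and 0.25 for Vim, 0.19 and 0.10 for Prom1 and -0.16 and -0.16 for Tead2. Leaving out 1 embryo gave 0.27 to 0.39 for Pax6, 0.07 to 0.31 for Nes, 0.18 to 0.29 for Vim, 0.11 to 0.16 for Prom1 and -0.21 to -0.12 for Tead2.

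Over all rows, 2 were called higher and 5 lower, and these counts moved with nearly every choice, the cause of which was not tested. They were 67 and 65 with normexp, 4 and 11 with quantile normalization, 4 and 18 with median centring, 10 and 16 with a filter on all 6 arrays, 0 and 2 when the probes of a gene were averaged, 56 and 88 with trend and robust variance, 6 and 13 with array weights, 5 and 17 with the authors' log2 values, and 34 and 45 at an adjusted p under 0.1. No row was called (0 higher and 0 lower) with no filter on dim probes, litter or slide as a block, or slide 2 alone. Leaving out 1 embryo gave 0 higher and 0 to 1 lower. Of the list genes, 0 were called, but 2 higher (Fabp7 and Ptprz1) and 2 lower (Emx2 and Lhx2) with normexp, the same and Gas1 lower (2 and 3) with trend and robust variance, 1 higher (Fabp7) with median centring, and 1 higher and 1 lower (Fabp7 and Emx2) with a filter on all 6 arrays, with the authors' log2 values and at an adjusted p under 0.1. Glis3 has no level, since its signals were not above background. Some medians and counts of signs over the gene lists turn on 1 embryo, as given beside them. With median centring the median difference was -0.04 for the junction and polarity genes and -0.04 for the Hippo pathway genes.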
